A study of Danio rerio with 6 samples.

Results

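The complement genes described here are 10 genes of zebrafish that encode proteins of the complement system: c3a.1, c3a.3, c3b.1, c5, c7a, c8a, c8b, c8g, c9 and cfb. They were chosen by symbol, with earlier results of these data known, so their counts beside those of all genes are descriptions. Each symbol matched 1 gene ID, so the 10 members are 10 of the 32520 genes in the count tables, and all 10 passed the filter on low counts. RNA was measured in whole larvae at 5 days after fertilisation, in 3 libraries of mutants labelled pdcd7/cx20 (allele pd1215) and 3 libraries of their siblings, labelled Wildtype. The sample titles of both groups carry cx20, so cx20 in a title does not separate mutants from siblings. The labels do not say what cx20 stands for, and they give 40 larvae without saying whether that is per replicate. The labels do not tell whether each replicate was a clutch of its own, so the p-values rest on the spread between libraries alone, and that spread may be technical.

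Complement is a cascade of plasma proteins that marks and kills microbes. C3, its central protein, is cut by convertases and binds to surfaces. Factor B supplies the protease of the alternative pathway convertase. C5 is cut next, and its larger fragment gathers C6, C7, C8 and many copies of C9 into the membrane attack complex, a pore. In vertebrates the liver is the main source of most of these proteins. Teleosts carry several C3 genes, and the c3a and c3b genes of zebrafish are such copies.

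Of the 10 members, 9 fell and 1 rose in mutants. The one that rose was c7a. The median log2 fold change of the members (mutant minus sibling) was -0.81, and that of all 24248 tested genes was 0.01. Calls were frequent in this comparison: 34.2% of all tested genes were called lower and 34.7% higher, at an adjusted p under 0.05 in edgeR's quasi-likelihood test. Of the members, 8 fell by at least 1.5-fold, as did 11.1% of all tested genes, and c3b.1, c8b and c9 fell by at least 2-fold, as did 5.23%. In every member the mutant and sibling libraries did not overlap. All mutant libraries lay below all sibling libraries for 9 members and for 35.8% of tested genes, and above them for c7a and for 36.4%.

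The libraries held 75122088 to 87110177 counts, and a count of 0 would allow up to 0.0334 to 0.041 CPM (counts scaled to library size, on sizes corrected by TMM factors), for counting error only. The lowest count of any member in any library was 470, that of c7a in a sibling library. The gene named in the mutant label, PDCD7, was 1.37-fold higher in mutants (20.6 ± 1.06 against 15.02 ± 0.227 CPM, SD, n = 3). These counts do not show the sequence change of the allele. Mitochondrial genes took 3.45% to 3.54% of counts in mutants and 3.12% to 3.22% in siblings.

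The C3 members differed in how far they fell. The most abundant C3 gene was c3a.1 (ENSDARG00000012694, GRCz11, chromosome 1, 56130222 to 56176976, minus strand). It measured 145, 156 and 158 CPM in mutant replicates 1 to 3 and 252, 237 and 242 CPM in the sibling replicates. Each mutant library was thus well under the lowest sibling library, and the change was 1.59-fold (log2 -0.67 ± 0.04 SE, adjusted p = 1.86e-11 in edgeR). The gene c3a.3 (ENSDARG00000052207, chromosome 1, 56274613 to 56320569, plus strand) lies in the same cluster and measured 61.0, 68.9 and 68.6 CPM in mutants and 86.5, 81.4 and 85.4 CPM in siblings. Its fall, 1.28-fold, was the smallest of the 9 (log2 -0.35 ± 0.04 SE, adjusted p = 6.7e-06 in edgeR). The third C3 member, c3b.1 (ENSDARG00000093068, chromosome 22, 26180184 to 26236275, minus strand), had 37.0, 36.3 and 31.1 CPM in mutants and 83.5, 82.7 and 79.4 CPM in siblings. Its mutant libraries held less than all sibling libraries by a wide margin, a 2.35-fold fall (log2 -1.24 ± 0.06 SE, adjusted p = 7.85e-08 in edgeR).

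**Figure D1:**
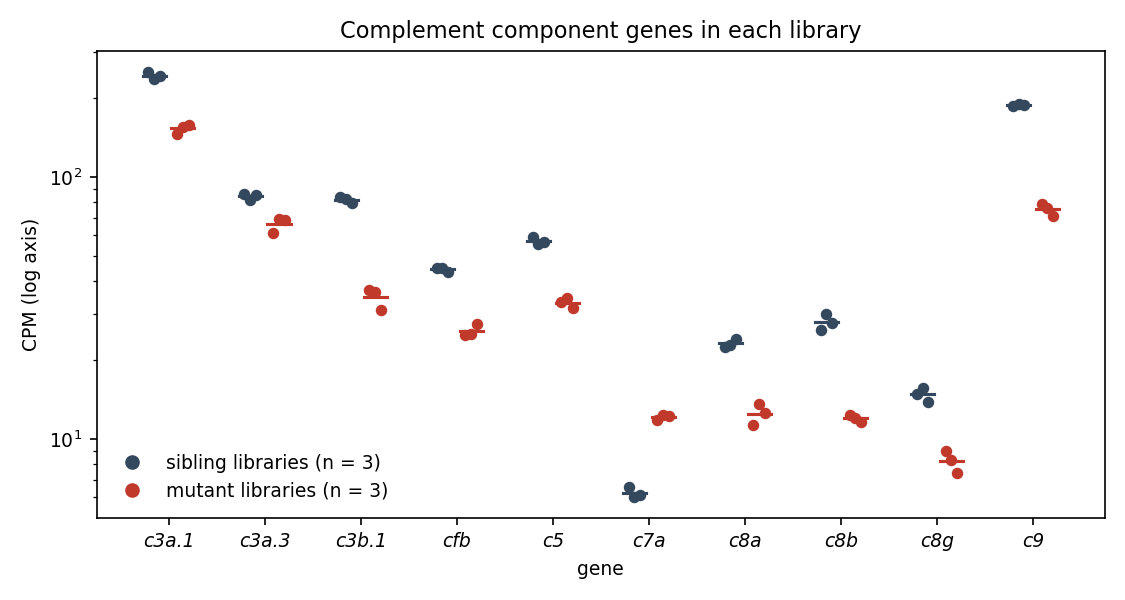
CPM of the 10 complement genes on a log axis. Points are libraries (3 sibling, 3 mutant) and lines are group means. In 9 genes the mutant points lie below all sibling points, from c3a.3 (1.28-fold) to c9 (2.50-fold), and in c7a they lie above.

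The C3 genes fell by different amounts, and their shares of all C3 transcripts were compared next. Levels per kilobase of gene model were summed over the 8 C3 genes of the annotation, c3a.1 to c3a.6 and c3b.1 and c3b.2. The sum was 61.1, 64.3 and 63.7 CPM per kilobase in mutants and 114.7, 109.2 and 111.2 in siblings. The share held by c3a.1 was 46.9%, 47.8% and 49.1% in mutants and 43.3%, 42.8% and 42.9% in siblings, and that of c3a.3 was 20.1% ± 0.847 and 14.5% ± 0.224 (SD, n = 3). Both shares were higher in each mutant library than in any sibling library. The share of c3b.1 went the other way, at 9.17% ± 0.997 in mutants and 12.2% ± 0.364 in siblings, as did that of c3b.2, at 11.6% ± 0.508 and 14.6% ± 0.214. The shares of c3a.6, c3a.2 and c3a.4 were lower too, at 7.94%, 2.99% and 0.201% in mutants and 10.9%, 4.37% and 0.416% in siblings. That of c3a.5 overlapped between groups. Each difference but that of c3a.5 had p = 0.1 in a two-sided exact permutation test over libraries. This is the smallest p that 3 against 3 libraries allow. Shares of one sum are not independent of each other. Reads that align to more than 1 place were not counted, so near-identical stretches of the C3 copies can lose reads, and the levels per copy are uncertain to that extent.

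**Figure D2:**
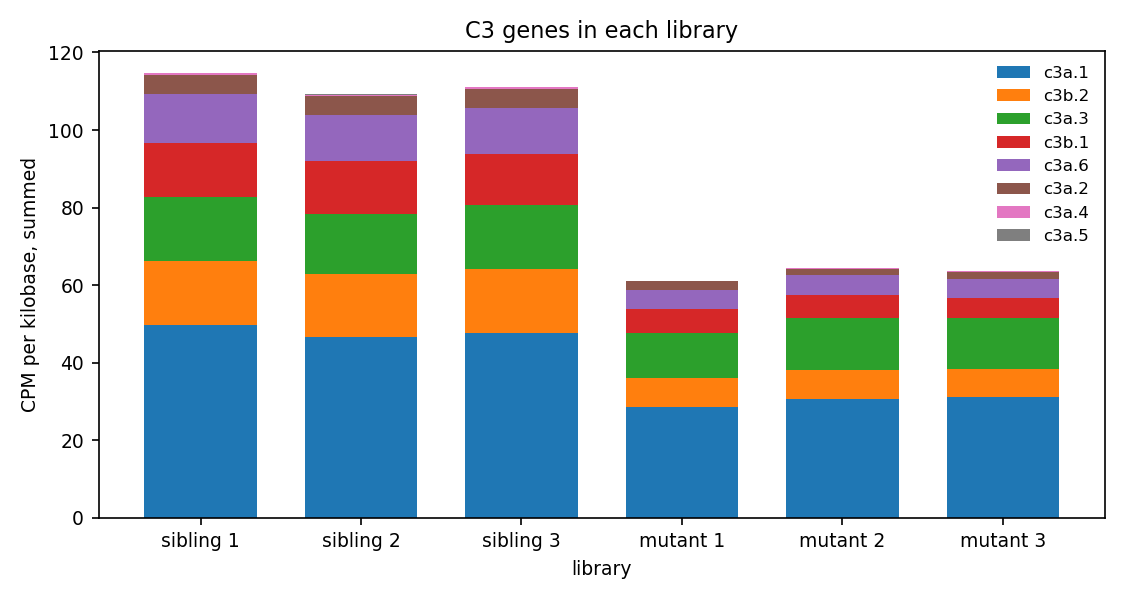
Stacked levels of the 8 C3 genes in each library, in CPM per kilobase of gene model. The mutant bars reach 61.1 to 64.3 and the sibling bars 109.2 to 114.7, and c3a.1 and c3a.3 fill a larger share of the mutant bars.

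The other C3 genes, which are not members, also fell where they were tested. The largest of these changes by fold was in c3a.4, which had 0.624 ± 0.107 CPM in the mutant group against 2.28 ± 0.225 (log2 -1.87 ± 0.15 SE). The gene c3a.2 changed by log2 -1.38 ± 0.10 SE, c3a.6 by -1.28 ± 0.04 and c3b.2 by -1.16 ± 0.03. The levels of c3a.5, 0.0521 ± 0.0185 CPM in mutants and 0.101 ± 0.0368 in siblings, were too low to test. Among the C3 genes tested, c3a.1 and c3a.3 therefore had the smallest changes.

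The alternative pathway member cfb (ENSDARG00000055278, chromosome 21, 27416284 to 27431397, plus strand), which encodes factor B, measured 24.9, 25.1 and 27.4 CPM in mutants. In siblings it measured 44.9, 45.0 and 43.3 CPM. All mutant libraries were below the siblings, and the fall was 1.72-fold (log2 -0.78 ± 0.04 SE, adjusted p = 8.25e-12 in edgeR). Factor D, the protease that cuts factor B, moved the other way. Its gene cfd rose from 121 ± 4.75 to 146 ± 6.00 CPM (log2 0.28 ± 0.04 SE, adjusted p = 2.37e-06 in edgeR).

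In the terminal pathway, c5 (ENSDARG00000021004, chromosome 5, 63458263 to 63509581, minus strand) had 33.2, 34.4 and 31.7 CPM in mutants and 59.0, 55.4 and 56.4 CPM in siblings. The groups were far apart, with a 1.72-fold fall that matched cfb in size (log2 -0.78 ± 0.04 SE, adjusted p = 3.81e-12 in edgeR). The gene c9 (ENSDARG00000016319, chromosome 5, 32345187 to 32355289, plus strand), whose protein lines the pore, had 78.9, 76.0 and 70.9 CPM in mutants and 187, 189 and 188 CPM in siblings. This was the largest fall among the members, 2.50-fold (log2 -1.32 ± 0.04 SE, adjusted p = 2.16e-15 in edgeR). Of all tested genes, 3.31% had a lower log2 fold change than c9. The gene c9 shares 275 exon bases with si:ch211-158m24.13 on the opposite strand, and counting was by strand.

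C8 is built from 3 chains, each with its own gene. The genes c8a (ENSDARG00000039516, chromosome 2, 1486822 to 1499584, plus strand) and c8b (ENSDARG00000039517, chromosome 2, 1478225 to 1518360, minus strand) overlap on opposite strands, with 0 exon bases in common, and c8g (ENSDARG00000032098, chromosome 24, 17031129 to 17039638, minus strand) lies elsewhere. The alpha chain gene c8a measured 11.3, 13.5 and 12.6 CPM in mutants and 22.5, 22.8 and 24.1 CPM in siblings. Its fall was 1.86-fold (log2 -0.89 ± 0.06 SE, adjusted p = 6.72e-10 in edgeR).

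The beta chain gene c8b measured 12.4, 11.98 and 11.6 CPM in mutants and 26.1, 29.9 and 27.6 CPM in siblings, a 2.33-fold fall (log2 -1.22 ± 0.05 SE, adjusted p = 5.52e-13 in edgeR). The gamma chain gene c8g, which encodes a lipocalin, measured 9.002, 8.35 and 7.41 CPM in mutants and 14.9, 15.6 and 13.9 CPM in siblings. It fell 1.79-fold (log2 -0.84 ± 0.07 SE, adjusted p = 1.27e-08 in edgeR). None of the C8 genes overlapped between groups, and c8b had the largest of these falls. The log2 ratio of c8a to c8b per kilobase was 0.06 ± 0.16 in mutants and -0.26 ± 0.11 in siblings, and that of c8g to c8b was 0.23 ± 0.10 and -0.14 ± 0.09 (SD, n = 3). Both ratios were higher in each mutant library than in any sibling library (exact permutation p = 0.1, two-sided, the smallest possible). The ratio of c8g to c8a overlapped between groups, with a difference of log2 0.05 (exact permutation p = 0.8).

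The exception c7a (ENSDARG00000042172, chromosome 8, 31872992 to 31899329, plus strand) encodes C7, which anchors the growing complex in the membrane. In mammals C7 is also made by many cells outside the liver. The gene measured 11.8, 12.4 and 12.2 CPM in mutants and 6.58, 6.03 and 6.14 CPM in siblings. Each mutant library held more than any sibling library, and the rise was 1.94-fold (log2 0.96 ± 0.06 SE, adjusted p = 7.23e-11 in edgeR). A rise of at least 1.5-fold was called in 10.7% of all tested genes. With c9 falling, the log2 ratio of c9 to c7a per kilobase went from 5.31 ± 0.07 in siblings to 3.03 ± 0.10 in mutants (SD, n = 3). Its paralogue c7b, not a member, measured 29.9, 23.2 and 25.05 CPM in mutants and 27.4, 21.1 and 23.2 CPM in siblings, which overlap (log2 0.12 ± 0.15 SE, adjusted p = 0.505 in edgeR). With the replicate number as a block, c7b had the same size of change and an adjusted p = 0.0109 in edgeR.

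The C6 genes, whose protein acts just before C7, did not fall either. The gene c6.2 measured 20.2, 22.3 and 22.4 CPM in mutants and 17.4, 15.9 and 17.2 CPM in siblings, and rose (log2 0.36 ± 0.05 SE, adjusted p = 4.79e-06 in edgeR). The low c6.1, singled out after its values were seen, had 1.92 ± 0.41 and 1.56 ± 0.0969 CPM and was not called (adjusted p = 0.0692 in edgeR). It was called higher with upper quartile scaling (adjusted p = 0.0407), with library size only (0.028) and without mutant replicate 1 (log2 0.46, adjusted p = 0.00304 in edgeR). In the terminal pathway, then, c5, c8a, c8b, c8g and c9 fell, c6.2 and c7a rose, and c6.1 and c7b were not called.

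**Figure D3:**
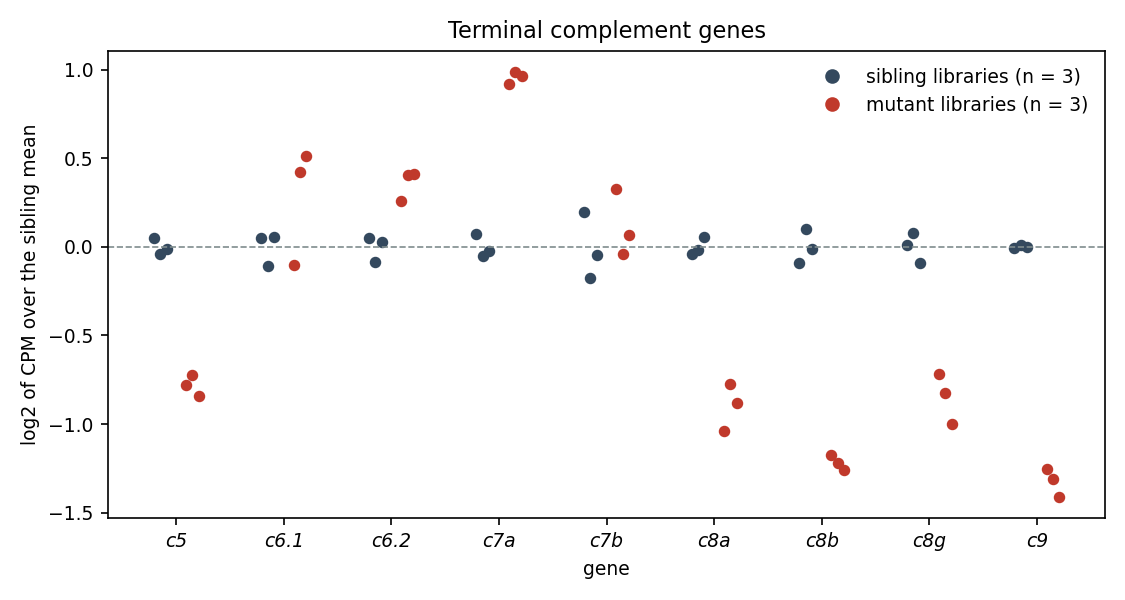
Terminal complement genes as log2 of CPM over the sibling mean of the same gene. Points are libraries. The mutant points of c5, c8a, c8b, c8g and c9 lie below the sibling points, those of c6.2 and c7a lie above, and those of c6.1 and c7b overlap them.

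Levels of different genes were compared per kilobase. In siblings the order was c9 (80.3 ± 0.474 CPM per kilobase), c3a.1 (48.0 ± 1.47), cfb (18.2 ± 0.400), c3a.3 (16.2 ± 0.516), c3b.1 (13.6 ± 0.362), c8b (11.97 ± 0.813), c5 (11.1 ± 0.367), c8g (10.8 ± 0.644), c8a (9.98 ± 0.357) and c7a (2.02 ± 0.0944), with SDs over n = 3 libraries. From c8b to c8a, neighbours in that order overlapped between libraries, and the others did not. In mutants c9 and c3a.1 overlapped, at 32.1 ± 1.72 and 30.2 ± 1.38 CPM per kilobase, and c3a.3 (12.7 ± 0.862) stood above cfb (10.6 ± 0.566). The genes c5, c8g, c3b.1, c8a and c8b followed in a run of overlapping neighbours between 6.48 and 5.15 CPM per kilobase, and c7a was again last at 3.92 ± 0.0977. The log2 ratio of c9 to c3a.1 was 0.23, 0.08 and -0.05 in mutants and 0.69, 0.79 and 0.75 in siblings (exact permutation p = 0.1, two-sided, the smallest possible).

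The spread between libraries was wider in mutants for 8 of the 9 members that fell. The coefficient of variation was 9.38% in mutants and 2.66% in siblings for c3b.1, and 5.37% and 0.591% for c9. For c8b and c7a it was lower in mutants, at 2.99% against 6.79% and 2.49% against 4.67%. With 3 libraries in a group these values are descriptions. The share of all tested genes with a wider spread in mutants was not computed. The count is thus not read as a trait of the members.

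**Figure D4:**
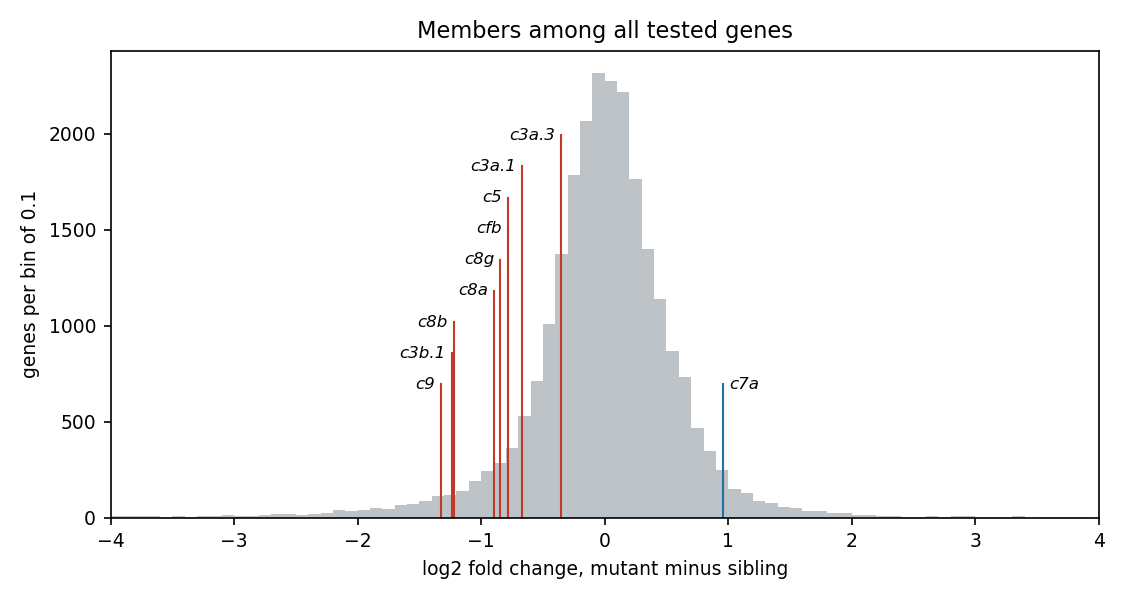
Histogram of log2 fold changes (mutant minus sibling) of all tested genes, in bins of 0.1, with the members marked by lines of arbitrary height. The 9 members that fell lie between -1.32 and -0.35, and c7a lies at 0.96.

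The wider complement list held 44 further genes, of which 41 were tested. Of these, 26 fell and 4 rose, with a median log2 fold change of -0.50, against 34.2% lower and 34.7% higher of all tested genes. By role, the recognition molecules and initiating proteases gave 9 lower and 5 not called of 14 (median -0.70). The mannose-binding lectin gene mbl2 fell from 14.9 ± 0.253 to 1.92 ± 0.211 CPM, 7.76-fold, with an adjusted p = 6.71e-16 in edgeR. MASP2, a lectin pathway protease, fell 1.89-fold, the hexose-binding lectin gene hbl4 2.21-fold and the collectin gene COLEC10 1.62-fold. The 5 not called were MASP1, hbl1, hbl2, COLEC11 and c1s.1, at log2 -0.13, 0.33, -0.16, 0.10 and 0.44. Some alternatives called hbl1 higher, such as that without sibling replicate 2 (adjusted p = 0.00398 in edgeR). Library size only called COLEC11 higher, and hbl2 was called lower without sibling replicate 3 (adjusted p = 0.0454 and 0.0438 in edgeR). The C1q chain genes c1qa, c1qb and c1qc, of the classical pathway, were all under 1 CPM and also fell, by log2 0.85, 0.85 and 0.50. The call of c1qc ended in DESeq2 (adjusted p = 0.0563) and without mutant replicate 1 (0.0769), mutant replicate 2 (0.0577) or sibling replicate 1 (0.0546) in edgeR. In mammals C1q is made largely by macrophages. The marker list of macrophages and neutrophils summed to 131 to 134 CPM in mutants and 170 to 179 CPM in siblings. Most of that sum was cd68 alone, at 72.1 ± 1.13 CPM in mutants and 92.5 ± 5.36 in siblings. The list covers 15 genes, 8 of them copies named MFAP4, and none was at 0 in any library; mpx and mpeg1.1 were not matched. Of its 13 tested genes 6 fell and 7 were not called, beside 34.2% of all tested genes called lower. Those not called were SPI1 and the tested copies of MFAP4. The falls with the lowest adjusted p were those of CORO1A (log2 -0.68 ± 0.05 SE), LCP1 (-0.71 ± 0.06), cd68 (-0.36 ± 0.04) and marco (-0.79 ± 0.08). Also lower, and named after their values were seen, were lyz (-0.69 ± 0.19, under 1 CPM) and csf1ra (-0.12 ± 0.04). The part of these cells in the C1q values was not tested.

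Of the other genes of the C3, C4 and convertase group, 6 of 7 tested fell and 1, cfd, rose (median -1.28). The counts of this and the next lists stand beside 34.2% lower and 34.7% higher of all tested genes. The C4 genes c4 and c4b, of the classical and lectin pathways, changed by log2 -1.54 ± 0.08 SE and -0.46 ± 0.08. Of 14 regulators tested, 9 fell, 1 rose and 4 were not called (median -0.41). Of the names added at matching, rca2.2, cd59b, cfbl and rca2.1, which are outside the counts of these lists, fell 1.89-, 2.14-, 1.35- and 1.15-fold. The added itgam.1 and itgam.2 were not called. The factor H-like genes cfhl4 and cfhl1 fell 2.03-fold and 2.15-fold, and serping1, which encodes the C1 inhibitor, fell 1.78-fold. The gene cd59a, related to the inhibitor that keeps C9 from building pores, fell 2.92-fold, from 19.5 ± 0.770 to 6.66 ± 0.330 CPM. CLU, the gene of clusterin, which binds the fluid-phase terminal complex, rose by log2 0.27 ± 0.04 SE (adjusted p = 8.65e-06 in edgeR). Of 4 receptor and binding protein genes, itgb2 (log2 -0.23 ± 0.05 SE) and c5ar1 (-0.54 ± 0.19) fell. C1QBP, the gene of a mitochondrial protein named for its C1q binding, rose from 66.1 ± 3.79 to 112 ± 2.77 CPM. The call of c5ar1, a gene under 1 CPM, ended in DESeq2 (adjusted p = 0.0609) and without mutant replicate 2 (0.0526) or sibling replicate 1 (0.121) in edgeR.

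**Figure D5:**
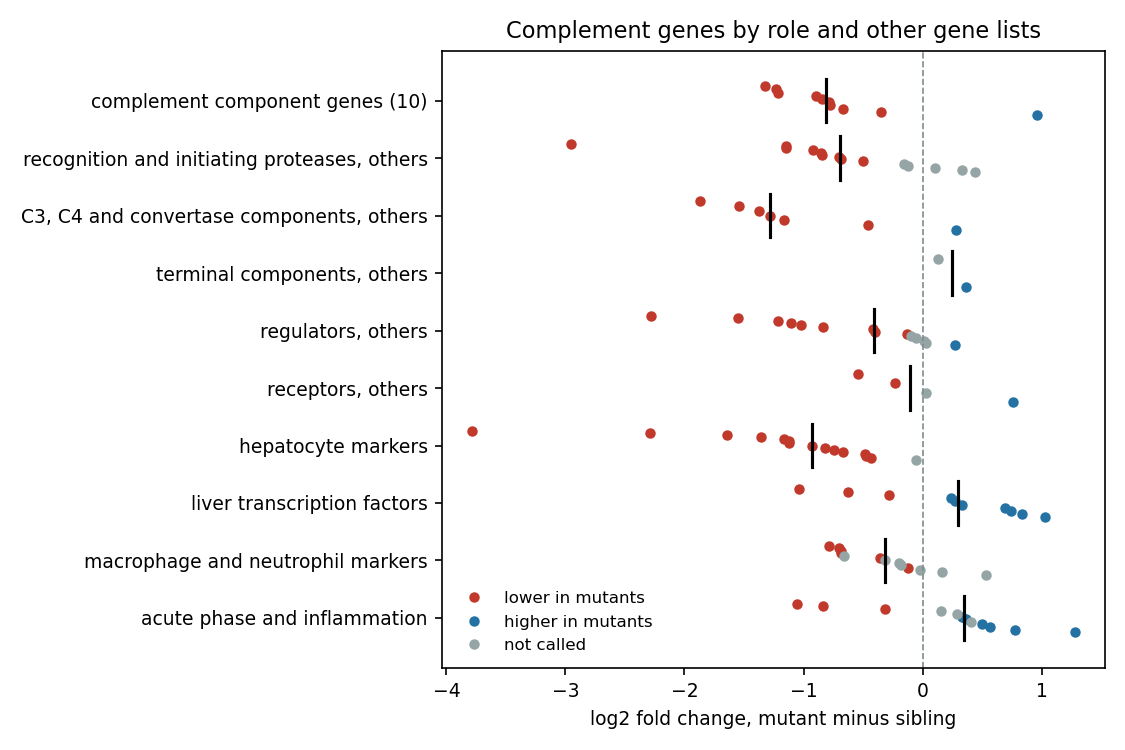
Log2 fold changes (mutant minus sibling) of the tested genes by list, with members taken out of the 5 complement role lists. Points are genes, coloured by call, and black bars are medians. The medians were -0.81 for the members, -0.93 for hepatocyte markers and 0.30 for liver transcription factors.

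Since plasma complement comes mainly from the liver, other liver transcripts were set beside the members. Of 15 hepatocyte markers 14 fell and 1 was not called, beside 34.2% of all tested genes called lower. Their median log2 fold change was -0.93, with a range of -3.78 to -0.05. TTR, the thyroid hormone carrier, changed by log2 -1.64 ± 0.04 SE, CP, the copper carrier ceruloplasmin, by -1.12 ± 0.03, ITIH2 by -0.93 ± 0.03 and ambp by -0.75 ± 0.03. The marker not called was RBP4, the retinol carrier, at 985 ± 14.1 and 1023 ± 21.3 CPM (adjusted p = 0.117 in edgeR). In whole larvae, fewer liver cells and less RNA per liver cell cannot be told apart.

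Whether the members fell further than other liver transcripts depended on the measure. Members summed to 425, 443 and 432 CPM in mutants and 783, 765 and 766 CPM in siblings, and the hepatocyte markers to 2578, 2459 and 2399 and 3861, 3823 and 3769 CPM. The log2 ratio of these sums was -2.52 ± 0.07 in mutants and -2.31 ± 0.01 in siblings, a difference of -0.21 (exact permutation p = 0.1, two-sided, the smallest possible). RBP4 alone held 39.8% ± 1.32 of the marker sum in mutants and 26.8% ± 0.347 in siblings. Without RBP4, an alternative chosen after seeing the data, the difference was 0.07 and the groups overlapped (exact permutation p = 0.4). With the mean of log2 CPM over genes in place of the sum, it was 0.43 (p = 0.1 by the exact permutation test). That mean gives full weight to the markers with the largest falls, ahsg1 (log2 -3.78 ± 0.13 SE) and hpxa (-2.29 ± 0.15). It also gives full weight to c7a (0.96 ± 0.06), the member that rose. The part of these genes in the difference was not tested. The direction of the members relative to the liver markers thus turned with the measure.

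Genes of transcription factors of the liver moved both ways, 7 higher and 3 lower of 10, beside 34.7% and 34.2% of all tested genes. HNF4A, a nuclear receptor of hepatocyte identity, fell from 40.0 ± 0.534 to 19.5 ± 0.681 CPM (log2 -1.04 ± 0.04 SE, adjusted p = 8.13e-14 in edgeR). PROX1, which also acts in the lens and nervous system, rose by log2 1.03 ± 0.03 SE, FOXA2 by 0.84 ± 0.06, CEBPB by 0.74 ± 0.04 and CEBPA by 0.27 ± 0.04. Whole larvae do not show in which organ a level changed.

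In mammals C3 and factor B are acute phase genes that rise in inflammation. In these libraries the acute phase and inflammation list gave 6 higher and 3 lower of 12 tested (median 0.35). The shares of all tested genes were 34.7% higher and 34.2% lower. The antimicrobial peptide gene leap2 rose from 10.1 ± 0.717 to 24.4 ± 1.13 CPM. The cytokine genes il1b and tnfb, at low levels, rose by log2 0.50 ± 0.17 SE and 0.77 ± 0.19. STAT3, the transcription factor downstream of interleukin 6, rose by log2 0.33 ± 0.04 SE, and the SOCS3 genes ENSDARG00000025428 and ENSDARG00000026611, of a STAT3 feedback inhibitor, by 0.57 ± 0.04 and 0.36 ± 0.05. The genes of the list that fell were lcn15, a lipocalin gene (log2 -1.05 ± 0.06 SE), apcs, a pentraxin gene matched through a synonym of crp (-0.84 ± 0.07), and hamp, the gene of hepcidin (-0.32 ± 0.06). The genes apcs, hamp, il1b and tnfb were added to the named genes after their values were seen. The list thus moved both ways in the libraries in which c3a.1, c3a.3, c3b.1 and cfb fell.

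The genes whose libraries lay nearest to the median profile of the members were CHPT1, si:ch211-207n2.7, COBL, SYT14 and krt92. Nearness was the root mean square distance of log2 CPM, centred on the sibling mean, over 6 libraries, and it ran from 0.0162 for CHPT1 to 0.0218 for krt92 among 16027 genes whose mean reached 5 CPM. Their log2 fold changes were -0.81, -0.82, -0.82, -0.86 and -0.83. With 2 groups of libraries, the measure mostly ranks genes by the size of their change.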

How the data were processed

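For each of 3 mutant and 3 sibling libraries, the authors deposited a table of unnormalized counts (read pairs assigned to each gene). The libraries were made with a stranded kit for mRNA, per the labels' protocols. Per the file headers, featureCounts 1.6.3 counted over exons of Ensembl GRCz11 release 115 with strand setting 2 and without an option for reads with several alignments. Trimmomatic 0.38 and STAR 2.7.11 were used, per the submitters' processing notes. Symbols came from a table that named 29201 of 32520 IDs and are printed as it gives them. Of 129 list entries, 107 matched a symbol exactly, 7 by a synonym (RefSeq names of assembly GRCz12tu, names only), 6 after the letter a or b was dropped, and 9 were not matched.

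The members and lists were chosen with earlier results of these data known. The names c6.1, c6.2, cfbl, rca2.1, rca2.2, cd59a, cd59b, itgam.1 and itgam.2 were added when the lists were matched. Of these 9 genes 5 fell and 1 rose, beside 34.2% lower and 34.7% higher of all tested genes. The genes cd59a and c6.2 also matched the lists through synonyms.

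Counts were tested over all 24248 genes that passed filterByExpr with edgeR 4.0.16 in R 4.3.3 (TMM scaling, robust quasi-likelihood F-test, genotype as the only term, two-sided), with Benjamini-Hochberg adjustment and a threshold of 0.05. SEs are the log2 fold change over the root of F. Levels per kilobase divide CPM by the gene length of the files. Named are all members and, per list, the 4 genes of the more frequent direction with the lowest adjusted p and 1 of the other. The other C3, C6, C7 and C4 genes, the C1q chain genes, apcs, hamp, il1b, tnfb, lyz, csf1ra and RBP4 were added. So were MASP1, hbl1, hbl2, COLEC11, c1s.1, cfh, cfhl2, cfhl3, cfhl5 and cpn2, after their values were seen. Ratios and shares were tested by exact permutation over libraries. Alternatives were other scalings and filters, DESeq2 1.42.0, limma-voom (limma 3.58.1), a replicate block, a threshold of 0.01 and each library left out. Figures used matplotlib 3.10.9.

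Same-numbered mutant and sibling libraries did not deviate together from their group means, so replicate numbers were not taken to pair the samples. No sequence of a member is shown, as no sequence table was used here.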

Additional observations from a re-analysis of the deposited data

How the results depend on the processing

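The count of members lower (9) and higher (1) was the same under all 15 alternatives run, including the replicate block and the threshold of 0.01. Each member kept its direction and its call in the 14 refitted alternatives, with shifts of at most 0.0757 on the log2 scale. With each library left out in turn, the log2 fold change of c9 ran from -1.36 to -1.28, of c3a.3 from -0.38 to -0.30 and of c7a from 0.93 to 0.99. Of the wider complement genes, 20 to 27 were lower and 4 to 6 higher over the alternatives, and the hepatocyte markers gave 14 lower in each. The count of 20 came with the filter of 1 CPM in 3 libraries, which tested 20744 genes and left out low ones such as c1qa, c1qb and c1qc. With library size only, the wider list gave 25 lower and 6 higher, and all 24248 tested genes gave 6827 and 10006. Library size in place of TMM moved the median of all genes by 0.072, and the 9 members stayed lower with it. The difference in the log2 ratio of members to hepatocyte markers (-0.21) was -0.20 per kilobase and reversed with the mean of log2 CPM over genes (0.43). Without RBP4, an alternative chosen after seeing the data, it was 0.07 and the groups overlapped (exact permutation p = 0.4). The sum gives abundant genes such as RBP4 more weight, and the mean of logs weights genes equally; the cause was not tested further. With a library left out, the difference in the ratio of sums ran from -0.23 to -0.17. The share of c3a.1 was higher in mutants by 4.94 percentage points, 5.10 from counts not divided by length, and 4.35 to 5.46 with a library left out. The correlations of deviations of same-numbered libraries were 0.0345, -0.065 and -0.00913. Those of differently numbered libraries ran from -0.116 to 0.131. These values show no pairing by number over all tested genes, and they cannot exclude it. With the replicate block the members gave 9 lower and 1 higher, and the wider list 26 lower and 6 higher, against 26 and 4.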
